A study of Mus musculus with 13 samples.

Results

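RNA precipitated with the Z22 antibody from YUMM1.7 mouse melanoma cells was compared between the combination of 5-Aza-CdR with ADAR1i-124 and 5-Aza-CdR alone. The members are the 14365 genes, of 54532 in the count table, whose CPM (the count scaled to a common library total) averaged 1 or more in these 2 libraries. The question was what the ADAR1 inhibitor added to the Z22-bound RNA of cells that had already been exposed to the demethylating drug. 5-Aza-CdR was given at 1 μM for 72 h and ADAR1i-124 at 10 μM for 12 h, and in the combination the inhibitor followed 5-Aza-CdR. The sources used here do not say whether cells with 5-Aza-CdR alone were kept for those further 12 h. An effect of the inhibitor and one of the later time after 5-Aza-CdR cannot be told apart here. It was not stated how the cells of the IgG control had been treated. The cell line is labelled wild type, and all libraries came from that line. The series has 13 libraries, 1 for each condition: total RNA, J2 precipitates and Z22 precipitates after DMSO, ADAR1i-124, 5-Aza-CdR or the combination, and 1 IgG precipitate.

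YUMM1.7 is an established mouse line grown from a melanoma. Z22 is a monoclonal antibody against the left-handed Z form of nucleic acids, and J2 is an antibody against double-stranded RNA in its usual right-handed form. ADAR1, encoded by Adar, converts adenosine to inosine in double-stranded RNA and carries a domain that binds Z-RNA. ZBP1 is a Z-RNA sensor that can start necroptosis, and MDA5, encoded by Ifih1, senses long double-stranded RNA and starts interferon signalling. 5-Aza-CdR (decitabine) is built into DNA and traps DNA methyltransferases, so that silenced repeats and germline genes can be transcribed. Mouse major satellite is the tandem repeat of pericentromeric heterochromatin.

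With 1 library per condition there was no replicate check and no test. A gene was counted as changed when its log2 change, taken after adding 0.5 CPM, was at least 2-fold in either direction. Intervals of single genes are 95% Wilson intervals of the share of counts that came from the combination library, written as log2 ratios without the added 0.5 CPM. They hold counting error alone, and since no molecular identifiers were used, reads need not stand for separate molecules. Intervals of medians are 95% order-statistic intervals and reflect the spread between genes. In precipitated RNA, a change in binding to the antibody and a change in the amount of the RNA in the cell cannot be told apart from these counts.

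The Z22 libraries held 9146858 counts with the combination and 8167960 with 5-Aza-CdR alone, and 3 counts, the smallest number taken as detected, correspond to 0.328 and 0.367 CPM. The matching J2 libraries held 11767409 and 13297822 counts. The combination library of total RNA had 1245894 counts and stood apart, with a Spearman coefficient of 0.227 to 0.271 across the 14365 genes with the other 12 libraries, against 0.841 to 0.987 among those. It is not used here. Total RNA levels are given for DMSO, ADAR1i-124 and 5-Aza-CdR only.

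Several genes differed between libraries in a way that did not follow the treatments. Ddx3y, a Y-linked RNA helicase gene named after its values were seen, had 0 counts in Z22 after 5-Aza-CdR alone and 2.51 CPM after the combination, beside 19.8 CPM for DMSO and 8.32 for ADAR1i-124. In J2 it was at 1.35 and 5.01 CPM, beside 26.3 and 1.46, and in total RNA at 3.35 CPM with DMSO, 48.9 with ADAR1i-124 and 36.7 with 5-Aza-CdR. Its counts in the combination library, 23 against 0, set a change of at least 6.85-fold against the floor of 3 counts. Col1a2 and Map1a, which are among the largest rises, were also low in both 5-Aza-CdR precipitates and high in total RNA with 5-Aza-CdR. Whether a mixture of cells with different histories had a part in these values was not tested.

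The labelled cell type was checked by its markers. Of 14 melanocyte markers, only Mitf, the melanocyte transcription factor gene, reached a mean of 1 CPM in the 2 Z22 libraries. The pigment genes Tyr, Dct and Mlana had 0 counts in both. The summed level of the list was 30.4 CPM with 5-Aza-CdR alone and 23.1 with the combination, and 10.2 to 34.2 over the 12 libraries. Of 18 leukocyte markers 4 were tested, with summed levels of 46.3 and 70.5 CPM, and 3 of the 4 were above 0, beside 32.8% of all genes. S100a8, a calcium-binding protein gene of neutrophils, was the 1 of the 4 past 2-fold (25%, beside 2.28% of all genes), with 22 and 119 counts (2.08, 1.62 to 2.92). Ptprc, which marks leukocytes, was at 0.245 and 0.109 CPM. Of 12 keratinocyte markers 3 were tested, at 5.14 and 8.42 CPM in sum, with Dsp at 14 and 33 counts (0.89), Ivl at 13 and 27 (0.72) and Krt10 at 12 and 11 (-0.21). In J2 Dsp was at least 2-fold higher (1.10), 1 of 3 tested there (33.3%, beside 1.44% of all genes). Krt14 had 0 counts in both Z22 libraries. Of 15 fibroblast and endothelial markers 10 were tested, at 293 and 348 CPM in sum, and 3 (30%, beside 2.28% of all genes) were at least 2-fold higher, Col1a2, Pdgfra and Dcn. With 2 CPM added before the log, Col1a2 alone was past the line. In bulk RNA, fewer cells of a type and less RNA per cell cannot be told apart, and the part of these markers in the results was not tested.

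Of the 14365 genes, 328 (2.28%) were at least 2-fold higher in Z22 with the combination and 1022 (7.11%) were at least 2-fold lower. The median log2 change was -0.18 (-0.19 to -0.17). Scaling moved this centre: edgeR's TMM factors shifted all changes by 0.20 upward, which put the median at 0.02 and the counts at 522 higher and 688 lower. DESeq2's size factors gave 477 and 719. The list medians that follow are therefore to be read against -0.18 in Z22 and 0.05 in J2, the medians of all genes. Most changed genes were low: 231 of the 328 and 672 of the 1022 had a mean under 10 CPM, and 5 of the 328 had no count with 5-Aza-CdR alone. The highest of these 5 was Crabp1, a retinoic acid binding protein gene, with 103 counts with the combination, at least 30.7-fold higher against the floor of 3 counts. The median chi-square per gene between the libraries was 3.90, against 0.455 if they differed by counting alone.

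The J2 precipitates give the nearest comparison and share no library with it. There, 204 of 14196 genes (1.44%) were at least 2-fold higher with the combination and 91 (0.641%) were at least 2-fold lower, around a median of 0.05. Of the 328 genes higher in Z22, 59 were also higher in J2, which is 18% of the Z22 genes and 28.9% of the J2 genes. Of the 1022 lower in Z22, 7 were also lower in J2, which is 0.685% and 7.69%. Across 13675 genes measured in both, Pearson's r of the changes was 0.18 and Spearman's rho 0.10, a description over genes that share their libraries.

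**Figure D1:**
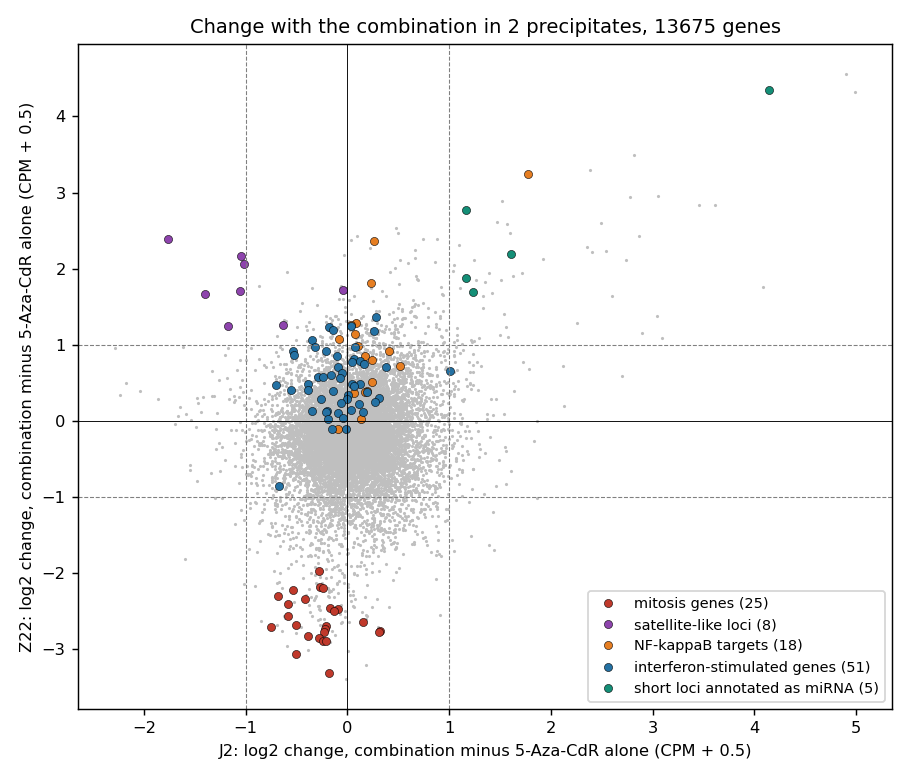
Each grey point is 1 of 13675 genes, with its log2 change between the combination and 5-Aza-CdR alone in J2 on the x axis and in Z22 on the y axis, and dashed lines at 2-fold. The 25 mitosis genes lie at -1.97 or lower in Z22 and between -0.75 and 0.32 in J2, the 8 satellite-like loci, 6 of them chosen for this pattern, lie at 1.24 or higher in Z22 and below 0 in J2, and the 5 short loci annotated as miRNA lie high in both.

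A group of satellite-like loci was formed around genes that were higher in the Z22 precipitate and lower in the J2 precipitate with the combination. Exactly 6 genes were at least 2-fold higher in Z22 and at least 2-fold lower in J2, and all 6 belong to this group, which was formed after that was seen: Gm10717, Gm10718, Gm10722, Gm10800, Gm10801 and Gm21738. They are annotated as protein-coding genes with no assigned function. The group was then taken as every gene with a count in the 2 windows on chromosomes 2 and 9 where they lie, plus Gm21738 on chromosome 14, 13 loci in all. Of these, 8 were tested in Z22, with log2 changes of 1.24 to 2.39 and a median of 1.71. The 6 that prompted the group were chosen for being at least 2-fold higher in Z22 and at least 2-fold lower in J2, so nothing is read from their counts beside the 2.28% and 0.641% of all genes, or from medians that include them. The others tested were Gm11168 (75 and 207 counts, 1.26) and Gm26870 (1868 and 6878 counts, 1.72), which overlap loci of the group or lie beside them. With 2 CPM added before the log, Gm10717 and Gm10718 were within 2-fold. In J2, 12 were tested, with a median of -0.92. The 6 of these that did not prompt the group had log2 changes of -0.82 to -0.04, all within 2-fold, with Gm11168 at -0.63 and Gm26870 at -0.04.

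Gm10800, at chr2:98666547-98667301 on the minus strand of GRCm38, had the highest level of the 6. It was at 63.1 CPM in Z22 with 5-Aza-CdR alone and 264 with the combination, against 0.458 with DMSO and 1.02 with ADAR1i-124. In J2 it was at 2183 CPM with 5-Aza-CdR alone and 1082 with the combination, against 6.73 and 7.09 without 5-Aza-CdR. In total RNA it was at 2.0 CPM with DMSO and 78.6 with 5-Aza-CdR, and IgG held 22 counts, or 1.44 CPM. All libraries with 5-Aza-CdR therefore stood above all those without it, and the combination raised the level in Z22 and lowered it in J2. The log2 change was 2.06 (1.93 to 2.20) in Z22 and -1.01 (-1.04 to -0.98) in J2.

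Gm26870, a lincRNA that spans 38032 bases of chr9:3000282-3038313, rose from 229 to 752 CPM in Z22, a log2 change of 1.72 (1.64 to 1.79). In J2 it was at 1987 and 1932 CPM, a log2 change of -0.04. It lies on the minus strand across the other chromosome 9 loci, which lie on the plus strand. Gm21738 rose from 6.24 to 29.8 CPM in Z22, and was at 182 and 88.1 CPM in J2. Gm10722 had 4 and 43 counts in Z22, a log2 change of 2.39 with a wide interval of 1.84 to 4.68. Near-identical copies share reads, and the strand setting of the counting was not stated, so the division of reads among these loci is uncertain.

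The sequence of 11 of the 13 loci repeats itself at 1 distance. Compared with itself at every shift from 50 to 400 bases, Gm10800 matched best at 234 bases, the unit length of mouse major satellite, with 67.2% identical bases against a median of 30.7% over all shifts. Gm10722, Gm10717 and Gm10718 also matched best at 234 bases, with 82.5%, 80.1% and 74.6%. Gm10801 did not, with 28.6% at 234 bases over its whole span, and Gm21738 matched best at 351 bases. A stretch of 234 bases from the middle of 2 loci is shown with runs of 4 or more A or T in capitals, to let the repeat be seen. The Gm10800 stretch is chr2:98666807-98667040 on the minus strand and the Gm10722 stretch is chr9:3001509-3001742 on the plus strand, both in GRCm38.p6.

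Gm10800: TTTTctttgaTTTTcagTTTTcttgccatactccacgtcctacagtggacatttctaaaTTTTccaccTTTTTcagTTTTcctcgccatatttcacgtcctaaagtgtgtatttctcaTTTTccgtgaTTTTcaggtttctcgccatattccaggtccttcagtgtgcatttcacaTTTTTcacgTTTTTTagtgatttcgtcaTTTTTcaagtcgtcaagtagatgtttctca
Gm10722: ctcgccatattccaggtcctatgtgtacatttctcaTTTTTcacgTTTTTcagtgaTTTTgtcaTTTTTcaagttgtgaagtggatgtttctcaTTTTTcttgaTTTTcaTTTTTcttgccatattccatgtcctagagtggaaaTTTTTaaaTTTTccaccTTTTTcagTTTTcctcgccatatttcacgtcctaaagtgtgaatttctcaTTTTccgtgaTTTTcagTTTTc

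Ribosomal RNA-like transcripts and short GC-rich loci were higher in Z22 with the combination as well, and in J2 each was higher or within 2-fold. Gm42418, a lincRNA at chr17:39846958-39848788, took the largest share of any gene. It made up 10.6% of the Z22 counts with 5-Aza-CdR alone (10.55 to 10.59%) and 15.8% with the combination (15.77 to 15.82%), beside 34.9% with DMSO and 14.6% with ADAR1i-124. The IgG precipitate held 14.2%. The log2 change was 0.58, and in J2, where the shares were 17.4% and 15.8%, it was -0.14. Its neighbour Gm26917 rose from 2554 to 12676 CPM in Z22, a log2 change of 2.31 (2.29 to 2.33), and from 2757 to 5883 CPM in J2. IgG held 1478 CPM of Gm26917. The library with the lowest Gm42418 and Gm26917 levels in Z22 was the 5-Aza-CdR library, the denominator of the comparison. A list of 8 ribosomal RNA-like loci set for this work mixed these transcripts with the satellite-like loci. Of these, 7 were tested, 6 were at least 2-fold higher in Z22 (85.7%, beside 2.28% of all genes) and the median was 1.71. In J2 its median was -1.01. Its members Gm10800, Gm10801, Gm10717 and Gm10718 are among the genes singled out for being higher in Z22 and lower in J2. Nothing is therefore read from this count or these medians.

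Among the largest rises were 2 short loci that GENCODE annotates as miRNA, Gm24245 and Gm24187. They and 3 further loci, named after their values were seen, have nearly the same sequence of 56 or 57 bases. Gm23935 (chr16:11144125-11144181), Gm24270 (chr9:56223715-56223771) and Gm24245 (chr4:139338304-139338360) are identical, and Gm24187 (chr13:9834469-9834525) and Gm25911 (chr1:167340369-167340424) each have 1 base that does not match and is shown as a capital. The sequence of Gm25911 is 1 base shorter. The genomic reference is GRCm38.p6, and each line is written 5′ to 3′ on the strand of the locus.

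Gm23935, Gm24270 and Gm24245: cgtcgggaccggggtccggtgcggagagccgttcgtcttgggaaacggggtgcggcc
Gm24187: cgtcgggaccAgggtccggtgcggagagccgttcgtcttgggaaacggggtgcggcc
Gm25911: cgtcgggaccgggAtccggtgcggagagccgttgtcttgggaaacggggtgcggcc

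All 5 were at least 2-fold higher in Z22 and in J2 with the combination, where 2.28% and 1.44% of all genes were. Since the family was formed from large rises, after values were seen, nothing is read from this count. Gm23935 had the highest level, at 1070 CPM in Z22 with 5-Aza-CdR alone and 4871 with the combination, and at 6334 with DMSO and 2867 with ADAR1i-124. In J2 it was at 1194 and 3653 CPM, and in IgG at 852. Its log2 change was 2.19 (2.15 to 2.22) in Z22 and 1.61 in J2. Gm24245 went from 8 to 270 counts, the largest rise among genes that averaged 10 CPM or more, a log2 change of 4.34 (3.92 to 5.91), and by 4.14 in J2. The Z22 library with 5-Aza-CdR alone was the lowest of the 4 Z22 libraries for each of the 5 loci. Counts of identical sequences cannot be assigned to 1 locus, so the family is read as a whole.

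**Figure D2:**
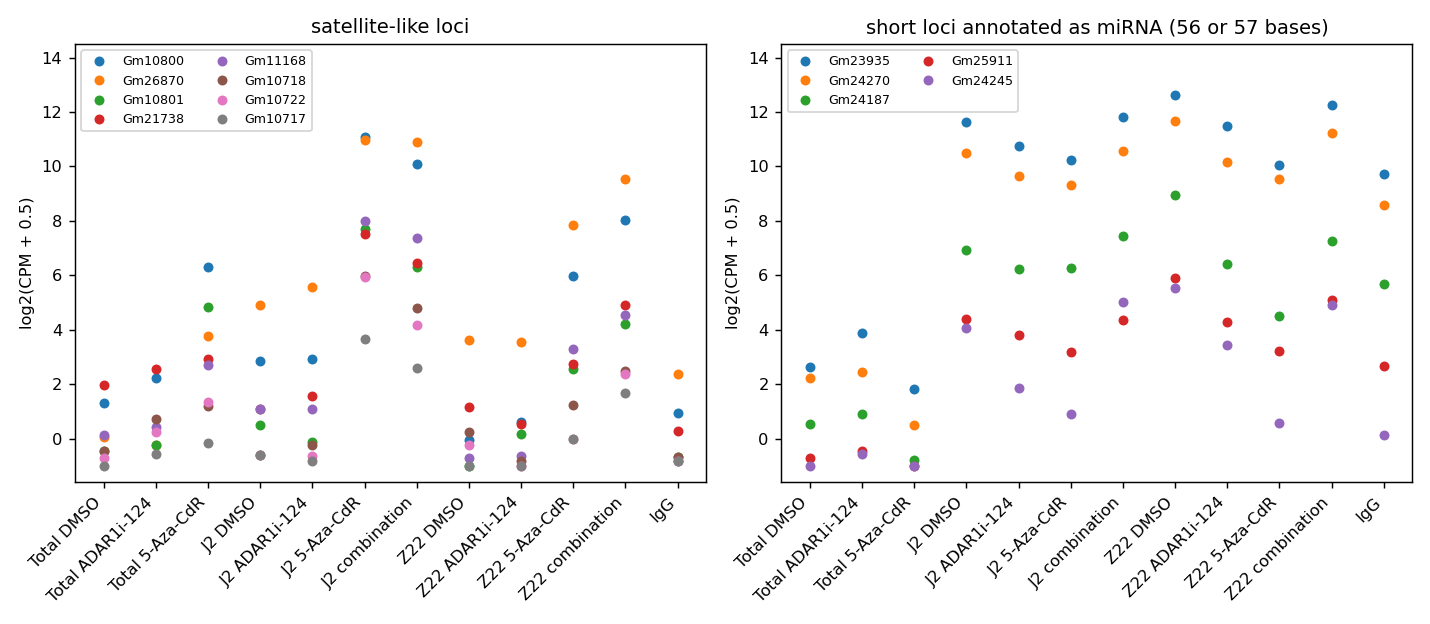
The y axis gives log2(CPM + 0.5) and the x axis 12 libraries, with 1 point per locus: the 8 satellite-like loci tested in Z22 on the left and short loci annotated as miRNA on the right. Each of these 8 is highest in J2 with 5-Aza-CdR alone and is higher in Z22 with the combination than with 5-Aza-CdR alone, and the short loci are lowest among the Z22 libraries with 5-Aza-CdR alone.

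The mitosis list was lower in Z22 with the combination. All 25 genes of the mitosis list were at least 2-fold lower in Z22 with the combination, beside 7.11% of all genes, with log2 changes of -3.31 to -1.97 and a median of -2.68 (-2.78 to -2.46). In J2 none of the 25 passed 2-fold in either direction, a count near the 1.44% of all genes higher and 0.641% lower there. The J2 median was -0.24, beside 0.05 for all genes. Of the 12 genes with the largest falls, 6 were on that list. Ccna2, which encodes cyclin A2 of S phase and mitosis, was at 83.9 CPM with 5-Aza-CdR alone and 7.98 with the combination, a log2 change of -3.31 (-3.74 to -3.05). Ccnb2, encoding a mitotic cyclin, fell from 35.9 to 3.83 CPM. Top2a, encoding the topoisomerase that untangles chromosomes, fell from 352 to 48.3 CPM, and Kif20a, a kinesin of cytokinesis, from 114 to 15.6. The others of the 12 were Aspm, a spindle pole protein gene with the largest fall at -3.39 (95.4 to 8.64 CPM), Hmmr, Ttk, Kif4, Parpbp, Prr11, Tk1, a thymidine kinase gene, and Tnnt2, a cardiac troponin gene that fell from 20.4 to 2.30 CPM.

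The level of these genes with 5-Aza-CdR depended on the kind of library. The 25 levels summed to 3117 CPM in Z22 with 5-Aza-CdR alone and 480 with the combination, and to 1307 and 1143 CPM in J2. In total RNA they summed to 5081 CPM with DMSO, 3733 with ADAR1i-124 and 658 with 5-Aza-CdR, and in IgG to 4830. Without 5-Aza-CdR, Z22 held 2776 CPM with DMSO and 5220 with ADAR1i-124. The sum thus fell with 5-Aza-CdR in total RNA but was above DMSO in Z22 with 5-Aza-CdR alone, the denominator of the comparison, and the part of that library in the fall was not tested. A list of 27 DNA replication and repair genes, added after the values were seen, moved in the same direction: 22 (81.5%, beside 7.11% of all genes) were at least 2-fold lower in Z22, including Rrm2, Fancd2 and Mcm5, and the median was -1.47, beside -0.28 in J2.

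**Figure D3:**
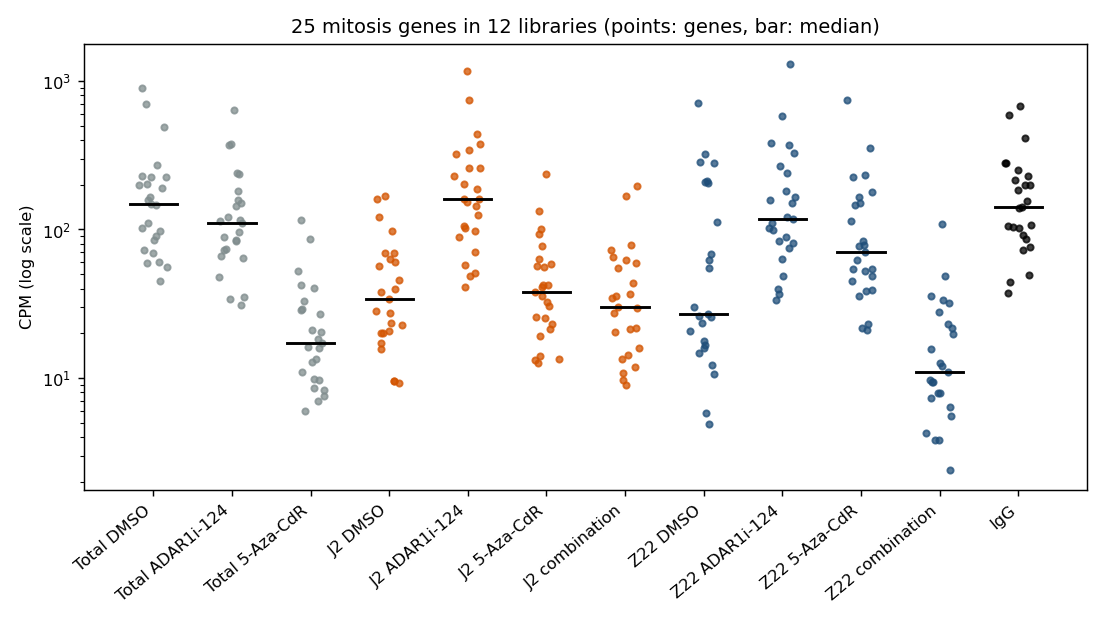
The y axis gives CPM on a log scale and the x axis 12 libraries; each point is 1 of the 25 mitosis genes and the bar is their median. The median is 70.6 CPM in Z22 with 5-Aza-CdR alone and 11 with the combination, 38.1 and 29.9 in J2, 17.2 in total RNA with 5-Aza-CdR and 142 in IgG.

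Lists chosen on total RNA libraries, which are not part of this comparison, widen the comparison to more genes. The shares of all genes are 2.28% higher and 7.11% lower in Z22, and 1.44% and 0.641% in J2. Of 254 genes at least 4-fold lower in total RNA with 5-Aza-CdR than with DMSO, 244 were tested in Z22, and 172 of those (70.5%) were at least 2-fold lower with the combination. Their median was -1.73 (-1.95 to -1.46), and -1.50 without the 25 mitosis genes. In J2 10 of 242 (4.13%) were lower, with a median of -0.22. Of 860 genes at least 4-fold higher in total RNA with 5-Aza-CdR, 715 were tested, 104 were higher and 21 (2.94%) lower in Z22, with a median of 0.24. Of 257 genes at least 4-fold higher in total RNA with ADAR1i-124, 209 were tested, 73 (34.9%) were higher and 16 (7.66%) lower in Z22, with a median of 0.67 (0.52 to 0.85). In J2 44 of 202 (21.8%) were higher and none lower, with a median of 0.43. Of 281 genes at least 4-fold lower in total RNA with ADAR1i-124, 266 were tested, 17 (6.39%) were higher and 19 (7.14%) lower in Z22, with a median of 0.23 (0.11 to 0.31), and in J2 2 of 267 were higher and 16 lower, with a median of -0.03. The genes lower in total RNA with the inhibitor thus had a median above that of all genes in Z22. All 4 lists share the DMSO library of total RNA and were added after the data were seen.

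The promoters of the mitosis list share short motifs. RefSeq promoter windows of 300 bases (250 before to 50 after the start, GRCm38.p6) were found for 21 of the 25 genes. Both TTTGAA and CCAAT, on either strand, were present in 15 of the 21 (71.4%), against 7.12% of all 27025 promoters and 5.10% of the 9641 promoters of tested genes. These are the letters of the cell cycle homology region and of the CCAAT box, elements known from cell cycle promoters. For the DNA replication and repair genes, 2 of 20 promoters held both. The 150 bases before the start are shown for Top2a, which holds both motifs there, and for Ccnb2, which holds CCAAT alone, with the motif letters of either strand in capitals. The Top2a stretch is chr11:99024190-99024339 and the Ccnb2 stretch chr9:70421555-70421704, both on the minus strand.

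Top2a: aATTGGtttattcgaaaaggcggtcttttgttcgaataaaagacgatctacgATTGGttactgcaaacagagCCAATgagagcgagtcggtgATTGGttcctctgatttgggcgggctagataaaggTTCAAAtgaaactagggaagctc
Ccnb2: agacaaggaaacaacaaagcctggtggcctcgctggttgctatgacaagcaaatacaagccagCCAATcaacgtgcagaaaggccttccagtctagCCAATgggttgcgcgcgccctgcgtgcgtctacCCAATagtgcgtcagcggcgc

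Genes for RNA sensors and the interferon response were mostly higher in Z22 with the combination, by less than 2-fold. Of 16 sensor genes, 14 were above 0, beside 32.8% of all genes, and 1, Zbp1, passed 2-fold (6.25%, beside 2.28% of all genes). The median was 0.40 (0.11 to 0.70). Zbp1 was at 38.8 CPM with 5-Aza-CdR alone and 89.6 with the combination, a log2 change of 1.2 (1.02 to 1.40). In J2 it was at 130 and 118 CPM, in IgG at 9.27, and in total RNA at 25.1 with DMSO, 0.681 with ADAR1i-124 and 111 with 5-Aza-CdR. Ifih1 was at 215 and 294 CPM (0.45, 0.36 to 0.54), and the 2′-5′ oligoadenylate synthetase gene Oas3 at 121 and 205 (0.76). Adar itself was at 241 and 285 CPM, a log2 change of 0.24 (0.15 to 0.32), and in J2 at 255 and 243.

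Of 51 interferon-stimulated genes, all tested, 48 were above 0 in Z22, beside 32.8% of all genes, 6 were at least 2-fold higher (11.8%, beside 2.28% of all genes) and none was lower by that much. The median was 0.49 (0.38 to 0.65), against -0.08 in J2, and it stayed between 0.48 and 0.69 under the other settings. The 6 were Bst2, an antiviral membrane tether gene, Iigp1 and Irf7, the master transcription factor gene of the response, with Zbp1, Tapbp and Ifit3. Irf7 was at 134 and 315 CPM in Z22 (1.23, 1.13 to 1.33) and at 403 and 357 in J2. Isg15, a ubiquitin-like modifier gene, was at 231 and 437 CPM in Z22 (0.92, 0.84 to 1.0) and at 604 and 417 in J2 (-0.54). In the Z22 pair without 5-Aza-CdR the list was lower with the inhibitor, with a median of -0.82 (-1.57 to -1.32 under the other scalings). There 21 of 50 genes were at least 2-fold lower, beside 5.13% of all 12799 genes. In total RNA the median level of the list was 135 CPM with DMSO, 5.39 with ADAR1i-124 and 111 with 5-Aza-CdR. For the 10 such genes that the study followed, the median was 0.55 and only Zbp1 passed 2-fold (10%, beside 2.28% of all genes). In J2 their median was -0.08 and only Cxcl9 passed 2-fold, at 1.01 (10%, beside 1.44% of all genes). The study calls them representative and gives no measure for that choice, so they are not taken as independent evidence of direction.

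Part of the NF-κB target genes rose in Z22. Of 18 in the list, 7 were at least 2-fold higher (38.9%, beside 2.28% of all genes), none was lower by that much, and the median was 0.88 (0.39 to 1.25), against 0.17 in J2. With 2 CPM added before the log, 5 of the 7 stayed past the line (27.8%, beside 1.04% of all genes), and Il6 and Bcl3 were within 2-fold. The chemokine gene Cxcl2 had 13 and 176 counts in Z22, or 1.59 and 19.2 CPM, a log2 change of 3.24 (2.79 to 4.40), and was at 6.84 and 24.6 CPM in J2. Cxcl1 was at 80.6 and 284 CPM in Z22 (1.81, 1.70 to 1.94) and at 320 and 375 in J2, with 24.2 in IgG. Ccl20 was at 1.84 and 11.5 CPM and Il6, the cytokine gene, at 0.735 and 2.51. For Cxcl1 and Ccl20 the J2 levels differed by little, and both J2 levels of Cxcl1 were above the Z22 level of either library. Acod1, an immune metabolic enzyme gene of activated macrophages, rose from 4.16 to 33.9 CPM in Z22 and from 13.5 to 39.7 in J2, and Mmp13, a collagenase gene, from 7.35 to 40.2 in Z22 with 25.4 and 26.1 in J2.

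Of the NF-κB targets, 13 had a RefSeq promoter, and 9 of those (69.2%) held the letters GGNNTTTCC on either strand, a part of the κB site, against 5.72% of all promoters. Of the interferon-stimulated genes, 39 had a promoter, and 21 (53.8%) held GAAANNGAA, a part of the interferon-stimulated response element, against 8.57%. Genes of both lists are known for such elements, and a match is a description of the letters only. The 150 bases before the start are shown for Cxcl2 (chr5:90903749-90903898) and Cxcl1 (chr5:90891095-90891244), both on the plus strand, and for Isg15 (chr4:156200819-156200968) on the minus strand, with the motif letters in capitals; matches may overlap.

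Cxcl2: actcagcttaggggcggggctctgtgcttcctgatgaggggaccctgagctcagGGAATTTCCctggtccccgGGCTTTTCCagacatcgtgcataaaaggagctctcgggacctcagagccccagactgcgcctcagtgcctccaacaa
Cxcl1: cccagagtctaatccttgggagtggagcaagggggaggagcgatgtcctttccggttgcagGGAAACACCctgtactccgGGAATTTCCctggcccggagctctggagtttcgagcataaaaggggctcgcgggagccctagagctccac
Isg15: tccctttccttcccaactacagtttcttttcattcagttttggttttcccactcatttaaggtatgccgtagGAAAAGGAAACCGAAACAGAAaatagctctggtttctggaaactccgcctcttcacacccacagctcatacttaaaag

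Stress genes were divided. Of 19 ATF4 targets, genes of the integrated stress response, 6 (31.6%, beside 2.28% of all genes) were at least 2-fold higher and none lower, with a median of 0.45 (0.15 to 1.13). They were Cebpb (2.57 to 14.3 CPM), Gdf15 (2.08 to 9.40), Atf5, Slc7a11, Atf3 and Trib3, the last within 2-fold with 2 CPM added. Of 17 NRF2 targets, the antioxidant genes, 4 (23.5%, beside 2.28% of all genes) were higher, 3 of them with 2 CPM added (not Gsta4), and the median was 0.19 (-0.07 to 0.36). The heme oxygenase gene Hmox1 was at 88.8 CPM with 5-Aza-CdR alone and 323 with the combination in Z22 (1.86, 1.75 to 1.98), and at 102 and 164 in J2. It was also at 1195 CPM in total RNA with ADAR1i-124, against 52.8 with DMSO. Heat shock genes and p53 targets had medians of -0.08 and -0.01, which became positive under other scalings, with 1 of 12 (8.33%) and 3 of 19 (15.8%) members higher, beside 2.28%.

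Immediate early genes moved in both directions. Of 18, 3 (16.7%, beside 2.28% of all genes) were at least 2-fold higher and 4 (22.2%, beside 7.11%) lower, and the median was 0.45 (-0.15 to 0.86). Junb rose from 24.1 to 86.5 CPM in Z22 and from 31.0 to 80.1 in J2. Fos fell from 17.4 to 5.36 CPM, Fosb from 59.1 to 23.1, Egr3 from 13.6 to 3.61 and Nr4a1 from 22 to 8.31 in Z22, while their J2 changes lay between -0.26 and 0.61. These are genes that cells transcribe quickly after a signal, and Fos, Fosb and Junb encode partners of the AP-1 transcription factor.

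Of 19 necroptosis and apoptosis genes, 1 passed 2-fold (5.26%, beside 2.28% of all genes), the p53 target Bbc3 (4.29 to 11 CPM), and the median was -0.09, which became 0.10 with TMM factors. Of 17 genes for ADAR enzymes and other double-stranded RNA binding proteins none passed 2-fold, and the median was -0.28. Of all genes 2.28% were higher and 7.11% lower, so few of 17 would pass at those shares, and nothing is read from this count. Dhx9, a helicase gene, was at 510 and 305 CPM (-0.74) and Dicer1 at 140 and 89.3 (-0.65). The median of the list was between -0.28 and -0.08 under the other settings.

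The DNA methylation and repeat silencing genes held both higher and lower members. Of 8 DNA methylation genes 1 was higher (Dnmt3l, within 2-fold with 2 CPM added before the log) and 1 lower (Uhrf1), each 12.5%, beside 2.28% and 7.11% of all genes, and the median was -0.37 (-1.43 to 1.44). Dnmt1, the maintenance methyltransferase gene and the target of 5-Aza-CdR, was at 394 and 202 CPM in Z22 (-0.96, -1.04 to -0.88) and at 198 and 176 in J2. Uhrf1, its partner at replicated DNA, was at 137 and 50.4 CPM (-1.43). Of 18 repeat silencing genes 3 (16.7%, beside 7.11% of all genes) were lower, Suv39h1 (35.3 to 11.8 CPM), Hells and Cbx5, and the median was -0.29 (-0.55 to -0.16). Hells and Cbx5 were within 2-fold with TMM factors, which left Suv39h1 alone past the line.

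Germline genes, whose promoters are methylated in somatic cells, were below 0 in 20 of 22 tested, beside 67.2% of all genes. Of these 22, from a list of 32, 8 were at least 2-fold lower (36.4%, beside 7.11% of all genes) and none higher, with a median of -0.53 (-1.23 to -0.36) and -0.22 in J2. With 2 CPM added before the log, 2 of the 8 stayed past the line (9.09% of the list, beside 3.47% of all genes), and Stk31, Tuba3a, Ddx4, Tex11, Slc25a31 and Piwil2 were within 2-fold. Hormad1 (3.67 and 0.656 CPM), Tuba3a (2.33 and 0.328) and Slc25a31 (2.57 and 0.656) reached the mean of 1 CPM only through the library with 5-Aza-CdR alone. The filter thus helped to set the count of lower genes, and nothing is read from it. Hormad1, a meiotic chromosome axis gene, had 30 and 6 counts in Z22. Mov10l1, a piRNA pathway helicase gene, was at 16.2 and 6.45 CPM in Z22 (-1.26, -1.77 to -0.88) and at 14.4 and 12.7 in J2. Both were at 0 CPM in Z22 with DMSO. The list summed to 272 CPM in Z22 with 5-Aza-CdR alone and 167 with the combination, against 23.4 with DMSO and 29.2 with ADAR1i-124, so both libraries of the comparison stood above the libraries without 5-Aza-CdR.

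Structured and noncoding RNAs differed by class. Of 12 structured small RNAs tested, 7SK (Rn7sk), the RNA that holds back transcription elongation, passed 2-fold at 3317 and 6697 CPM (1.01), with 4973 and 4401 in J2 and 4777 in IgG. It was the only 1 of the 12 to do so (8.33%, beside 2.28% of all genes). The class median was 0.30, against -0.94 in J2, where 6 of 15 (40%, beside 0.641% of all genes) were at least 2-fold lower. The 19 mitochondrially encoded transcripts had a median of -0.40 (-0.65 to -0.22) and 0.33 in J2, and the 15 nuclear long noncoding RNAs had -0.39 and 0.19 in J2. Of these 15, 3 (20%, beside 7.11% of all genes) were lower, Airn (31.0 to 11.7 CPM), Mir17hg and Pvt1. Pvt1 was within 2-fold with TMM factors. Of 42 replication-dependent histone genes 7 were higher (16.7%, beside 2.28% of all genes) and 3 lower (7.14%, near the 7.11% of all genes). With 2 CPM added, 1 of the 7, Hist1h4a, stayed higher (2.38%, beside 1.04% of all genes). Hist1h4a (0.122 and 2.95 CPM, 1 and 27 counts) and Hist1h2ak (0.612 and 2.51 CPM) reached the mean of 1 CPM only through the combination library. The filter thus helped to set the count of higher histone genes, and nothing is read from it. The 86 cytoplasmic ribosomal protein genes had a median of -0.15, which became 0.05 with TMM factors, and 2 were higher, Rplp2 (47.0 to 165 CPM) and Rpl36, a share of 2.33% that is close to the 2.28% of all genes.

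**Figure D4:**
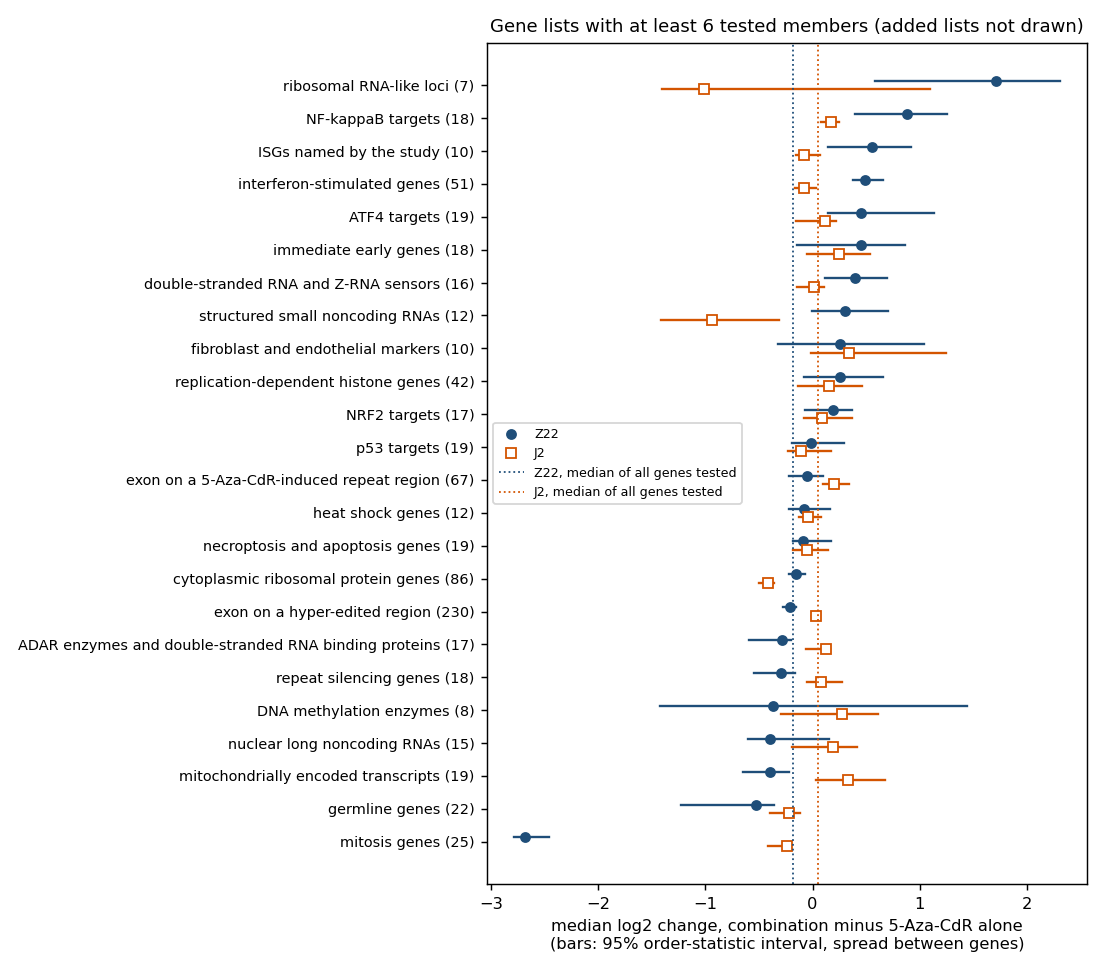
The x axis gives the median log2 change between the combination and 5-Aza-CdR alone for each list of the first set with at least 6 tested members, with the number tested in Z22 in parentheses (lists added later, the satellite-like loci among them, are not drawn); filled circles are Z22, open squares J2, bars are 95% order-statistic intervals and dotted lines the medians of all genes. Mitosis genes stand lowest in Z22 at -2.68, and NF-κB targets at 0.88 stand highest of the drawn lists after the ribosomal RNA-like list. That list includes satellite-like loci singled out for being higher in Z22 and lower in J2, so nothing is read from its place.

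By annotated class, TEC and sense intronic transcripts were lower in Z22 than protein-coding genes. The 804 genes of class TEC, which are transcribed loci of uncertain nature, had a median of -0.66 (-0.70 to -0.62), with 197 (24.5%, beside 7.11% of all genes) at least 2-fold lower and 4 (0.498%, beside 2.28%) higher. In J2 the median of that class was 0.33 (0.29 to 0.35). The 123 sense intronic transcripts had -0.71 in Z22 and 0.29 in J2, against -0.16 and 0.03 for 11730 and 11636 protein-coding genes. Under the 3 other scalings the TEC median was -0.53 to -0.48 in Z22 and 0.24 to 0.33 in J2. The sense intronic median was -0.59 to -0.53 in Z22 and 0.20 to 0.27 in J2. These scalings shift changes by too little to turn such signs, so that the signs held is no check. Among protein-coding genes the median fell with summed exon length, from -0.00 for 232 genes under 1000 bases to -0.26 for 2252 genes of at least 8000 bases. By chromosome, medians were between -0.32 and -0.11 on the autosomes and X.

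Genes on hyper-edited regions had a median close to that of all genes. Of 242 genes with an exon on a region that the study lists as hyper-edited, 230 were tested, 2 (0.870%, beside 2.28% of all genes) were at least 2-fold higher and 7 (3.04%, beside 7.11%) lower, and the median was -0.21 (-0.28 to -0.15), beside -0.18 for all genes. The largest falls were Hmmr at -2.90, Gen1, a DNA repair nuclease gene, at -2.58 and Mad2l1, a spindle checkpoint gene, at -2.35. Of 83 genes with an exon on a repeat region that the study lists as induced by 5-Aza-CdR, 67 were tested, 2 (2.99%) were higher and 2 (2.99%) lower, beside 2.28% and 7.11% of all genes, with a median of -0.06, which became 0.14 with TMM factors. Cyba, an NADPH oxidase subunit gene on this list, had 22 counts with the combination and 0 with 5-Aza-CdR alone, at least 6.55-fold higher against the floor. Of the 3 edited genes that the study displayed, Wdr76 fell from 15.8 to 6.78 CPM (-1.16, and -0.97 with TMM factors), Iws1 was at 96.1 and 79.2, and Gnl3l at 80.1 and 66.8. Counts per gene hold neither editing levels nor reads of single repeats.

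Among the 12 largest rises, Rgs9, a G protein regulator gene, went from 3.06 to 39.8 CPM in Z22 and from 3.84 to 30.1 in J2. Col1a2, a collagen chain gene, went from 4.90 to 52.7 CPM in Z22 (3.30, 2.96 to 3.89) and from 5.56 to 31.3 in J2. It was at 1053 CPM in Z22 with DMSO, at 114 with ADAR1i-124 and at 79.4 in IgG. Both thus rose from a low level that was below that of DMSO in the same precipitate. Of 26 collagen chain genes tested, a list added after the values were seen, 5 were higher (19.2%, beside 2.28% of all genes) and 2 lower (7.69%, near the 7.11% of all genes), with a median of 0.01. Map1a and Col4a2 were also higher in both precipitates, with log2 changes of 2.60 and 2.23 in Z22 and 2.50 and 2.54 in J2. Prl2c2, a proliferin gene of a family with near-identical copies, rose from 12.7 to 69.0 CPM in Z22 and from 70.2 to 118 in J2. Gm19410 rose from 4.53 to 26.7 CPM in Z22, with 16.3 and 17.5 in J2.

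**Figure D5:**
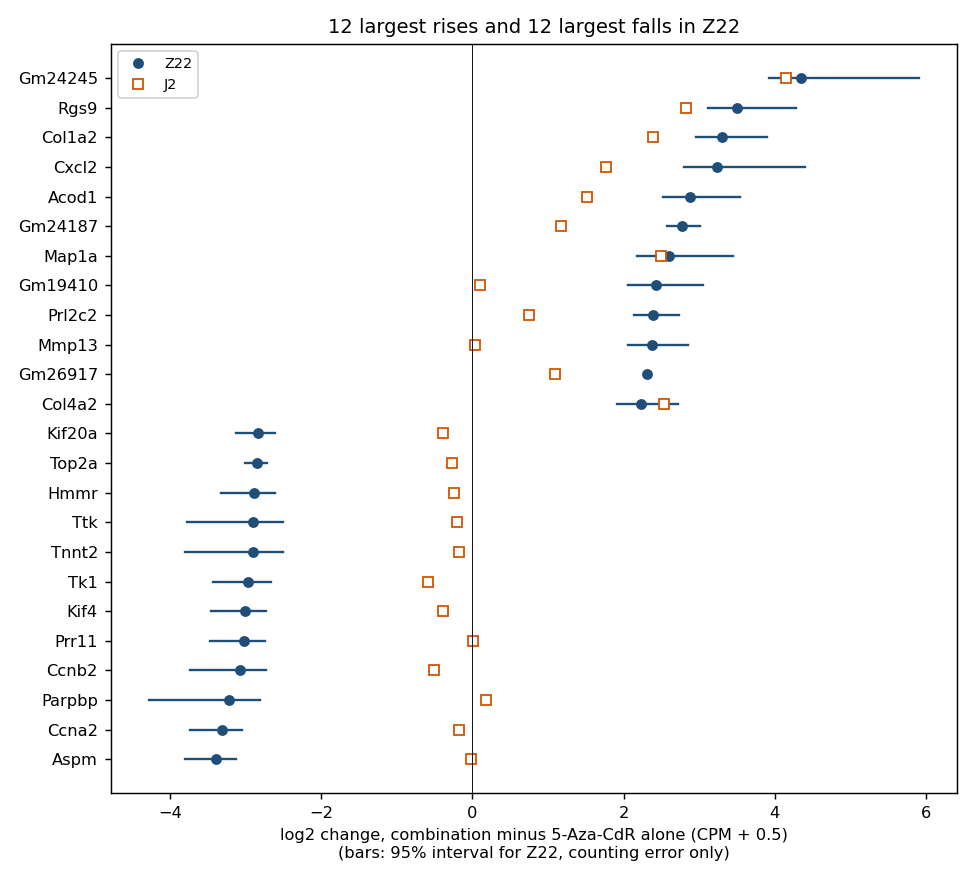
The x axis gives the log2 change between the combination and 5-Aza-CdR alone for the 12 largest rises and 12 largest falls in Z22 among genes that averaged 10 CPM or more. Filled circles with bars are Z22 with its 95% counting interval and open squares are J2. The 12 falls lie between -3.39 and -2.83 in Z22 and between -0.59 and 0.18 in J2, while 9 of the 12 rises are also above 1 in J2.

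In the Z22 pair without 5-Aza-CdR, more genes were higher with the inhibitor than lower. There 5487 of 12799 genes (42.9%) were at least 2-fold higher with ADAR1i-124 than with DMSO and 657 (5.13%) were lower, with a median of 0.81. With TMM factors 2790 were higher and 1804 lower, and with size factors 2612 and 1953. Gm42418 took 34.9% of the DMSO counts, and the median was 0.10 to 0.33 under the other scalings. The mitosis list was at 1.41 in that pair (0.67 to 0.93 under the other scalings), the interferon-stimulated genes at -0.82, the short loci annotated as miRNA at -1.63 and the NF-κB targets at 0.46, which became -0.27 to -0.02 under the other scalings. After 5-Aza-CdR the same lists were at -2.68, 0.49, 2.19 and 0.88. The difference between the pairs was not tested, since each condition has 1 library.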

How the data were processed

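RNA was sequenced from YUMM1.7 cells as total RNA or after precipitation with J2, Z22 or IgG, in 13 libraries. The authors aligned the reads to mm10 with STAR in the snakePipes workflow, and the deposited table holds raw read counts per gene and library, with 1 library per condition and no pooling. The strand setting of the counting was not given in the sources used here. GENCODE M21 gave names and positions for 54495 of the 54532 genes.

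Counts were divided by the column sum, as CPM, and log2 was taken after adding 0.5 CPM. Genes that averaged 1 CPM or more in the compared libraries were kept. No test was made. Named genes were the 12 largest rises and 12 largest falls among genes that averaged 10 CPM or more, at most 5 members of each list by size of change, and Adar, Zbp1, Ifih1, Wdr76, Iws1, Gnl3l and Gm42418, which gave 142 genes. Further genes named in the text were chosen after their values were seen. The members and lists were chosen with earlier results of these data known. Scaling factors were taken from R 4.3.3 with DESeq2 1.42.0 or edgeR 4.0.16, and all other steps used Python 3.11.15. The steps were tested on simulated counts for this comparison, drawn with counting error alone. Of 191 genes changed 4-fold and tested, 186 passed the 2-fold line in the right direction. In either direction, 59 of 14127 unchanged genes passed it, among 14318 genes. The real libraries differed by more than counting (median chi-square 3.90 against 0.455), so these numbers check the steps and give no error rate for the real calls. Promoter sequences were taken from RefSeq and other sequences from the genome, both GRCm38.p6.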

Additional observations from a re-analysis of the deposited data

Results flagged for a closer look

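Differences between the antibodies, or between the Z22 pairs with and without 5-Aza-CdR, were picked out because the groups moved in opposite directions. None of these differences was tested, since each condition has 1 library. The satellite-like loci had a median log2 change of 1.71 in Z22 and -0.92 in J2 with the combination, but 6 of them were chosen for this opposite pattern, so these medians restate the choice. The TEC genes had -0.66 in Z22 and 0.33 in J2. The mitosis genes were at -2.68 in Z22 after 5-Aza-CdR and at 1.41 without it. The short loci annotated as miRNA were at 2.19 after 5-Aza-CdR and at -1.63 without it, and the interferon-stimulated genes at 0.49 and -0.82.

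The Y-linked gene Ddx3y stood out in libraries outside the comparison, at 19.8 CPM in Z22 with DMSO and 26.3 CPM in J2 with DMSO, while Z22 with 5-Aza-CdR alone held no count of it.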

How the results depend on the processing

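No paired analysis was possible because each condition has 1 library, and no library could be left out. In Z22 with the combination, the 328 higher genes became 522 with TMM factors, 569 with totals without the 20 most abundant genes, 149 with 2 CPM added, 97 with a filter at 10 CPM, 523 with no filter, 53 at 4-fold and 973 at 1.5-fold. The 1022 lower genes became 498 with 2 CPM added, 350 with a filter at 10 CPM, 138 at 4-fold, 2718 at 1.5-fold and 631 among protein-coding genes. Alternatives chosen after seeing the data gave 508 higher and 675 lower with the median change set to 0, and 138 higher and 665 lower without genes that moved the same way by 2-fold in total RNA with 5-Aza-CdR. The median of all genes in Z22 was 0.018 with TMM factors, -0.021 with size factors, -0.038 without the 20 most abundant genes, -0.16 with 2 CPM added, -0.17 with a filter at 10 CPM and -0.15 with no filter.

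In J2 the 204 higher genes became 313 without the 20 most abundant genes, 353 with 0.1 CPM and 77 with 2 CPM added, 33 with a filter at 10 CPM, 398 with no filter, 30 at 4-fold, 999 at 1.5-fold and 133 among protein-coding genes. The 91 lower became 150 with 0.1 CPM and 34 with 2 CPM added, 31 with a filter at 10 CPM, 157 with no filter, 4 at 4-fold, 541 at 1.5-fold and 28 among protein-coding genes. In Z22 with ADAR1i-124 alone, the 5487 higher became 2790 with TMM factors, 2612 with size factors, 3441 with a filter at 10 CPM and 1686 at 4-fold. The 657 lower became 1804 with TMM factors, 1953 with size factors, 1575 without the 20 most abundant genes, 354 with a filter at 10 CPM, 121 at 4-fold and 1241 at 1.5-fold. Filters and fold lines change these counts by construction, and for the other settings the cause was not tested.

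Of 85 named genes past 2-fold, 20 fell within 2-fold under at least 1 of the settings tried. The count that changed sign was 0, but the settings applied to single genes could not have produced any. The scalings shifted changes by 0.15 to 0.20, and a different added CPM cannot turn a sign. Of 42 lists, 9 medians changed sign. Depth limits single genes at a few counts: 39 of the 328 higher genes had at most 3 counts in the 5-Aza-CdR library, and 35 of the 1022 lower genes had at most 3 in the combination library.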
